A study of Mus musculus with 27 samples.

Results

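The D-type cyclins, their kinases and the inhibitors of those kinases were followed through haematopoietic development as a set of 9 genes: the cyclins Ccnd1, Ccnd2 and Ccnd3, the kinases Cdk4 and Cdk6, and the inhibitors Cdkn1b, Cdkn1c, Cdkn2c and Cdkn2d. They were taken by gene symbol from an expression table of 24418 entries. All 9 were present and passed the filter on low values that left 13350 genes to test. The 27 libraries, 3 in each of 9 groups, were bulk RNA sequencing of HSPCs, the blood-forming stem cells and their early progeny, purified from C57BL/6 mice. No allele, agent or treatment is named in the labels, so the groups differ in age and source. Embryos gave E12.5 PL and 2 groups of fetal liver (FL), E12.5 FL and E16.5 FL. Bone marrow (BM) gave Perinatal BM and, at ages in weeks (w), 1w, 3w, 4w, 6w and 8w BM. FL and BM are read by their usual meaning, and no label says what PL stands for. Neither the markers used to purify the cells nor the sex or the perinatal day is stated in the sources used here.

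D-type cyclins bind Cdk4 or Cdk6, and the active pair phosphorylates the retinoblastoma protein and its relatives. This releases E2F factors and lets a cell pass from G1 into S phase. Inhibitors come in 2 families: the INK4 proteins, among them the products of Cdkn2c and Cdkn2d, bind Cdk4 and Cdk6 themselves, whereas the Cip/Kip proteins, among them the products of Cdkn1b (Kip1) and Cdkn1c (Kip2), bind the assembled cyclin and kinase. In mice, loss of all 3 D-type cyclins impairs fetal blood formation, and Cdkn1c and Cdkn1b act in keeping adult stem cells quiescent.

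Promoter sequence is shown for the kinase pair, whose balance shifted with age, and for Cdkn2c, the inhibitor with the widest range among the liver and marrow groups. RefSeq promoters on GRCm38.p6, which run from 250 bases before to 50 after a RefSeq transcript start, were at hand for 6 of the 9 genes, with 8 promoters in all. The windows below lie at chr10:127063285-127063584 on the plus strand (Cdk4), chr5:3343643-3343942 on the plus strand (Cdk6) and chr4:109666707-109667006 on the minus strand (the upstream promoter of Cdkn2c). The Cdk6 and Cdkn2c windows lie inside the gene spans that GENCODE gives, so they surround one annotated start and not the outermost one. Each reads 5′ to 3′ along the gene, and capitals mark the E-box CACGTG and the GC box, GGGCGG or its reverse complement CCGCCC.
Cdk4: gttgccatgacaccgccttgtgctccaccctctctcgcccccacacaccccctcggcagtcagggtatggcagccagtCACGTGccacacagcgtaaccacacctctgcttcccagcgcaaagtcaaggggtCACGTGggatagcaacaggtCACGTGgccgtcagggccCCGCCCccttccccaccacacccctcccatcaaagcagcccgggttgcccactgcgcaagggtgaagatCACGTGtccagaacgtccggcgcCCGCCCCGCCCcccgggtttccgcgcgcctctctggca
Cdk6: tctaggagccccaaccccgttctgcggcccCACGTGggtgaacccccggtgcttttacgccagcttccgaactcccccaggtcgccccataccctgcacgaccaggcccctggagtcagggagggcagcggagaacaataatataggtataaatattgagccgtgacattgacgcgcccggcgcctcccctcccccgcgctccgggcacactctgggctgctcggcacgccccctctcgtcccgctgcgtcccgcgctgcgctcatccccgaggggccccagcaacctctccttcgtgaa
Cdkn2c: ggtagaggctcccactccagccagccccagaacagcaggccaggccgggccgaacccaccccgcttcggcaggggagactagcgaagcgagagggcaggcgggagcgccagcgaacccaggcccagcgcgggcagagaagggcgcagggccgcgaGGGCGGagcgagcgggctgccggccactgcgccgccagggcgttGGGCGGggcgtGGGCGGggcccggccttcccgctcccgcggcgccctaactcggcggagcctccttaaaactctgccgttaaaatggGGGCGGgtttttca
The Cdk4 window held 4 E-boxes and 3 GC boxes, a pair of which share bases. The Cdk6 window held 1 E-box and no GC box, and the Cdkn2c window held 4 GC boxes and no E-box. A second Cdkn2c promoter, downstream of the one shown, held 1 E-box and no GC box. An E-box stood in 7.15% and a GC box in 35.7% of 32851 RefSeq promoters of the same length, searched on both strands. At least 4 E-boxes, the number found in the Cdk4 window, were held by 8 promoters (0.0244%). The bases G and C made up 67% of the Cdk4, 66.7% of the Cdk6 and 73.3% of the Cdkn2c window shown. The median over all promoters was 52.7%, and the rates of the motifs were not adjusted for this. E2F sites, searched as TTTCCCGC, TTTGGCGC or TTTCGCGC, were in 0 of the 8 promoters of the set and in 1.84% of all. The FOXO site GTAAACA was in 1 of the 8, the upstream promoter of Ccnd3, and in 3.65% of all. These matches are letters in a window and were not tested as binding sites.

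Before the genes are described, 2 features of the libraries bear on what follows. The E12.5 PL libraries stood apart from the other 24. The summed FPKM (fragments scaled to transcript length and library size) of 20 pan-leukocyte genes lay between 1100.7 and 1260.2 in E12.5 PL, against 3013.3 to 3248.3 in E12.5 FL, and 19 of the 20 fell. Ptprc, which encodes the leukocyte antigen CD45, averaged 7.91 ± 2.78 FPKM in E12.5 PL and 65.3 ± 2.31 FPKM in E12.5 FL (SD, n = 3 each). Of 18 HSPC genes 2 rose and 15 fell, and Kit, the stem cell factor receptor, averaged 62.7 ± 11 FPKM in E12.5 PL and 129.8 ± 4.44 FPKM in E12.5 FL. Genes of some other cell types were high in E12.5 PL: 20 trophoblast genes summed to between 4803.6 and 5815.2 FPKM, against 19.8 to 21.1 FPKM in E12.5 FL, and all 15 that could be tested rose. Stromal genes summed to between 7342.6 and 17046.5 FPKM in E12.5 PL, against 25 to 30.8 FPKM in E12.5 FL (16 of 18 rose), and endothelial genes to between 1289.9 and 1664.3 FPKM, against 348.3 to 378.6 FPKM (17 of 18 rose). Most markers of the labelled cell type were thus lower, and most of those of trophoblast, stroma and endothelium higher, in E12.5 PL. These libraries are named by their label alone. In Perinatal BM, 16 mast cell and basophil genes summed to between 2468.6 and 5326.8 FPKM, against 658.3 to 857.6 FPKM in E16.5 FL, and all 16 rose. The same genes summed to between 912.2 and 1172.7 FPKM in 1w BM (12 of 16 rose relative to E16.5 FL), so 1w BM is set against E16.5 FL as well. FPKM of a library summed to between 519810 and 763033, 14241 to 16964 genes were above 0, and the read depth itself is unknown. In bulk samples, fewer cells of a type and less RNA per cell cannot be told apart.

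The balance among the D-type cyclins differed by age. Ccnd1, needed in mice for growth of the retina and mammary gland, was highest in the E12.5 groups and lowest in 6w and 8w BM, Ccnd2 was highest in young marrow, and Ccnd3 held the largest share of the 3 in every group. Ccnd1 (chr7:144929931-144939925, minus strand) measured 67.5, 47.8 and 37 FPKM in E12.5 PL. It measured 28.3, 27.5 and 27.9 FPKM in E12.5 FL, 18.2, 20.4 and 23.7 FPKM in E16.5 FL, and 22.6, 22.1 and 26.6 FPKM in Perinatal BM. These groups stood above every older marrow library from 3 weeks on. Later marrow gave 24.8, 18.9 and 21.9 FPKM at 1 week, 15.3, 13.1 and 16.9 FPKM at 3 weeks and 13.6, 11.3 and 13 FPKM at 4 weeks. The lowest levels were 7.59, 10.2 and 8.38 FPKM in 6w BM and 9.16, 8.38 and 7.06 FPKM in 8w BM. In the order of group means, Perinatal BM, 1w BM and E16.5 FL overlapped one another in turn, as did 3w BM with 4w BM and 6w BM with 8w BM. All 4w BM libraries lay above all 6w BM libraries.

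**Figure D1:**
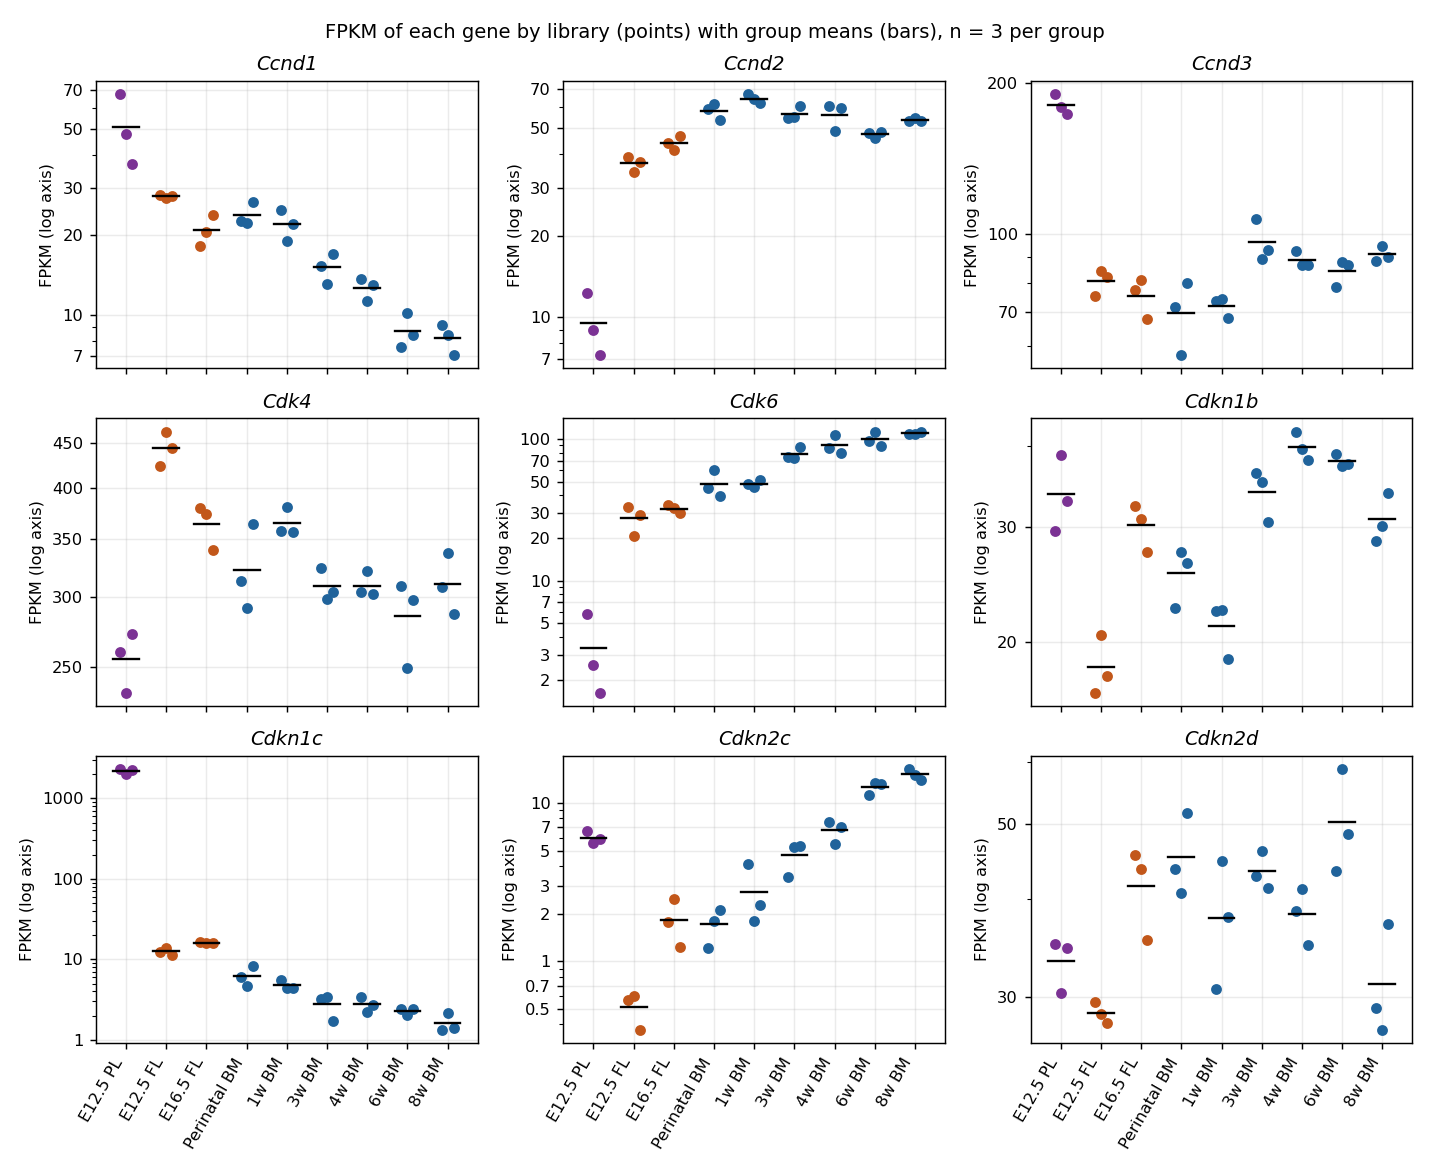
Level of each of the 9 genes in FPKM on a log axis, by group from E12.5 PL to 8w BM; points are the 3 libraries of a group and bars are group means. Ccnd1 and Cdkn1c run downward through marrow while Cdk6 and Cdkn2c run upward, and Cdkn1c in E12.5 PL lies near 2183.0 FPKM, against at most 16.4 FPKM in any library of the other groups.

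Differences below are on the scale of log2(FPKM + 1), which understates folds at low levels. They come from a limma fit of all 27 libraries, with p-values adjusted over all genes tested and a threshold of 0.05. The labels do not say that libraries of a group came from separate animals, so the p-values measure the spread between these libraries, which may be technical. Whether libraries of 2 groups overlap is given as description only. How many of all tested genes had no overlap was not counted. Ccnd1 was 2.36-fold lower in 8w BM than in E16.5 FL (-1.24 ± 0.16, SE; adjusted p = 1.57e-06 by limma). Within marrow the step that passed was 3w BM against 1w BM (-0.50 ± 0.16, adjusted p = 0.0432), and it was lost in 4 of the 6 fits that left out a library of these groups (without 1w BM replicate 1 or 3, or 3w BM replicate 1 or 2; adjusted p = 0.0982 to 0.183). It was also lost without the low-value filter (0.0697) and in a fit of only those 6 libraries (0.0689). The step from 4w to 6w BM gave a difference of -0.49 and an adjusted p of 0.0858, and passed once E12.5 PL was left out of the fit (adjusted p = 0.02). Ccnd1 fell in E16.5 FL relative to E12.5 FL by 0.42 (adjusted p = 0.045), a call lost without the filter (0.0714) and in 5 of the 6 fits that left out a library, all but the one without E16.5 FL replicate 3 (0.0857 to 0.177). It rose in E12.5 PL relative to E12.5 FL (0.80 ± 0.16, adjusted p = 8.95e-05), with the marker levels given above beside it; their part in the result was not tested.

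Ccnd2 took a different course from Ccnd1, lowest in E12.5 PL and highest in 1w BM. Its gene lies on chr6:127125162-127152193, minus strand, and mice need its product for growth of the ovarian granulosa cells. It measured 12.3, 9 and 7.24 FPKM in E12.5 PL, against 39.2, 34.4 and 37.6 FPKM in E12.5 FL, with no overlap (-1.88 ± 0.11, a 3.69-fold lower level in E12.5 PL; limma adjusted p = 3.38e-13). From there the group means climbed to 44.1 ± 2.67 FPKM in E16.5 FL, 57.9 ± 4.05 FPKM in Perinatal BM and 64.2 ± 2.44 FPKM in 1w BM (SD, n = 3 each). Older marrow stayed between 46 and 60.2 FPKM in every library. The rise was called for 1w BM against E16.5 FL (0.53 ± 0.11, adjusted p = 0.00127) and for Perinatal BM against E16.5 FL (0.39 ± 0.11, adjusted p = 0.012). The perinatal call was lost without E16.5 FL replicate 2 (0.0549) or Perinatal BM replicate 2 (0.054). For 8w BM against E16.5 FL the difference of 0.27 missed the threshold (adjusted p = 0.0547), and it passed without the E12.5 PL libraries (0.0051). The same holds for E16.5 FL against E12.5 FL (0.24, adjusted p = 0.0956, and 0.0135 without E12.5 PL).

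Ccnd3 was the most even of the cyclins outside E12.5 PL, with group means between 69.7 and 96.5 FPKM, a ratio of 1.38. Its gene spans chr17:47505051-47599691 on the plus strand, and in mice its product drives the expansion of immature T cells. In E12.5 PL it measured 189.7, 178.5 and 173.6 FPKM, against 75.4, 84.5 and 82.2 FPKM in E12.5 FL, which is 2.22-fold higher with no overlap (1.15 ± 0.09, limma adjusted p = 9.07e-11). It rose in 3w BM relative to 1w BM, at 107.2, 89.2 and 93.1 FPKM against 73.6, 74.5 and 68.1 FPKM (0.41 ± 0.09, adjusted p = 0.00584). Every 3w BM library lay above every 1w BM library. In 8w BM it rose by a smaller amount relative to E16.5 FL (0.27 ± 0.09, adjusted p = 0.0214), a call lost without E16.5 FL replicate 3 (0.123) or 8w BM replicate 2 (0.0759).

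As shares of the summed FPKM of the 3 cyclins, which may be added because FPKM is per length, Ccnd1 held 19.2 ± 0.577% in E12.5 FL, 14.8 ± 2.13% in E16.5 FL, 13.8% in 1w BM, 8.01% in 4w BM and 5.36 ± 0.688% in 8w BM (SD, n = 3). Ccnd2 held 25.5% in E12.5 FL, 40.6 ± 0.167% in 1w BM and 34.9% in 8w BM. Ccnd3 held 55.4% in E12.5 FL, 45.6% in 1w BM and 59.7% in 8w BM. In E12.5 PL the shares were 20.8% for Ccnd1, 3.9 ± 0.621% for Ccnd2 and 75.3 ± 4.67% for Ccnd3. The sum itself stayed between 140.4 and 168.2 FPKM in the liver and marrow groups, and it was 240.9 FPKM in E12.5 PL.

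**Figure D2:**
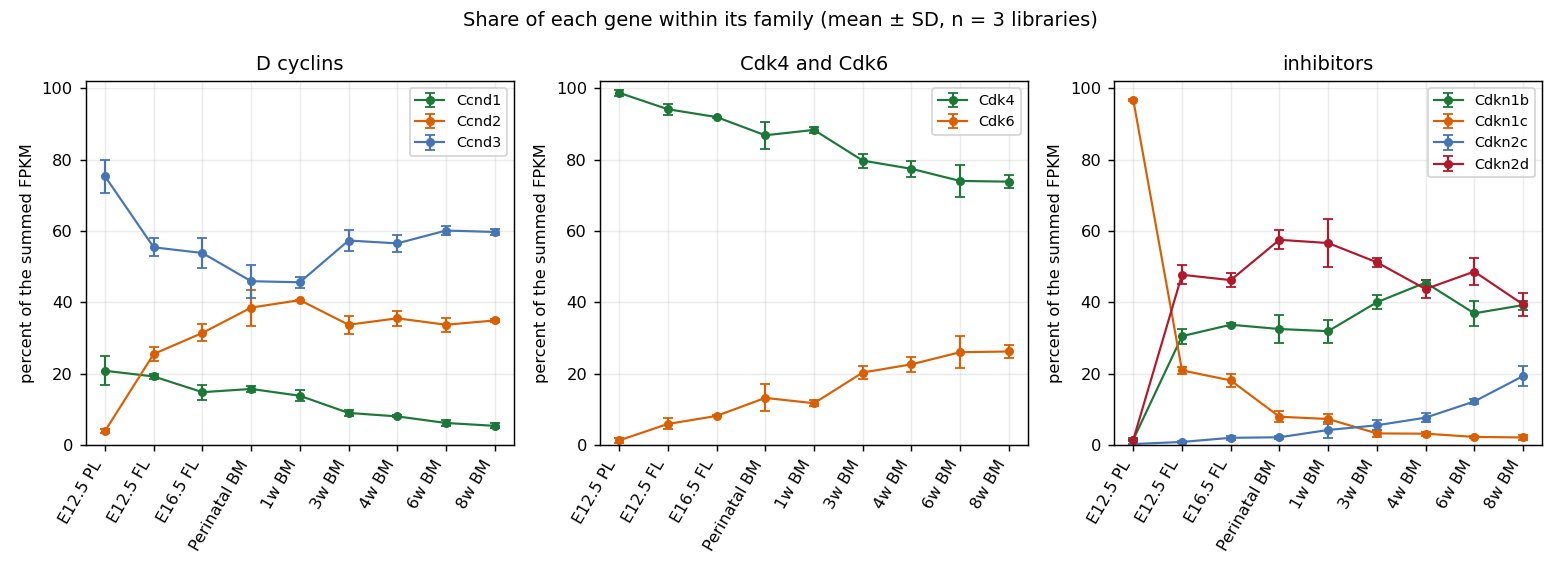
Share of summed FPKM, in percent, that each gene held within the D-type cyclins, within Cdk4 and Cdk6, and within the 4 inhibitors, by group from E12.5 PL to 8w BM; points are means and error bars SD of 3 libraries, and lines only join the points. Cdk6 stands at 5.89% in E12.5 FL and climbs to 26.2% in 8w BM, and Cdkn1c stands at 96.7% of the inhibitors in E12.5 PL.

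The kinases moved in opposite directions. Cdk6, a kinase whose level in human stem cells is known to set how fast they leave quiescence, was higher in older marrow than in fetal liver, and Cdk4, its close relative, drifted down from a high start. Cdk6 (chr5:3341485-3531008, plus strand) measured 5.8, 2.55 and 1.62 FPKM in E12.5 PL. It measured 33.2, 20.5 and 29.2 FPKM in E12.5 FL and 34.2, 32.5 and 30 FPKM in E16.5 FL. Liver libraries all lay below those of marrow, which began at 44.8, 60.8 and 39.3 FPKM in Perinatal BM and 48, 45.8 and 51.2 FPKM in 1w BM. It then reached 74.4, 73.5 and 88.1 FPKM in 3w BM and 86.7, 107.1 and 79.1 FPKM in 4w BM. The highest values were 96.2, 112.8 and 89.6 FPKM in 6w BM and 108.5, 109 and 112.7 FPKM in 8w BM. From 3 to 8 weeks each group overlapped the next in the order of means, while 3w BM overlapped neither 1w BM nor Perinatal BM.

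Cdk6 rose 3.35-fold in 8w BM relative to E16.5 FL (1.74 ± 0.23, SE; limma adjusted p = 2.03e-06). No single step along the way passed the threshold in the fit of all 27 libraries. Perinatal BM against E16.5 FL gave 0.55 (adjusted p = 0.0756), 1w BM against E16.5 FL 0.57 (0.0749) and 3w BM against 1w BM 0.69 (0.0534). Those 3 differences passed when the E12.5 PL libraries were left out of the fit (adjusted p = 0.00809, 0.00753 and 0.00441 in that order). The E12.5 PL libraries ranged from 1.62 to 5.8 FPKM, and their spread enters the estimate shared by all groups. Without Perinatal BM replicate 3 the perinatal difference also passed (0.0458). In E12.5 PL, Cdk6 was 7.07-fold lower than in E12.5 FL (-2.82 ± 0.23, adjusted p = 8.76e-11).

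Cdk4 (chr10:127063534-127067920, plus strand) was the most abundant of the 9 genes per length in every group except E12.5 PL. It measured 259.8, 233.5 and 272.2 FPKM in E12.5 PL, against 423.5, 463.8 and 444.6 FPKM in E12.5 FL, with no overlap (-0.80 ± 0.09, limma adjusted p = 1.85e-08). In E16.5 FL it measured 379, 373 and 339.6 FPKM, below every E12.5 FL library (-0.29 ± 0.09, adjusted p = 0.0138). That call was lost without E12.5 FL replicate 2 (0.0597) or E16.5 FL replicate 3 (0.0696). From E16.5 FL onward the group means lay between 285.6 FPKM in 6w BM and 364.3 FPKM in 1w BM, and each overlapped its neighbour in rank. The call that it fell in 8w BM relative to E16.5 FL (-0.23 ± 0.09, adjusted p = 0.0408) was lost in 4 of 6 fits that left out a library (without E16.5 FL replicate 1 or 2, or 8w BM replicate 1 or 3; 0.0885 to 0.176), without the filter (0.0558) and in a fit of the 6 libraries alone (0.0674).

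Cdk6 made up 1.28% of the summed Cdk4 and Cdk6 FPKM in E12.5 PL. Its share was 5.89 ± 1.54% in E12.5 FL, 8.14 ± 0.136% in E16.5 FL, 13.2% in Perinatal BM and 11.7% in 1w BM, and then 20.3%, 22.6%, 26% and 26.2 ± 1.88% at 3, 4, 6 and 8 weeks (SD, n = 3). The sum of both kinases was highest in E12.5 FL at 471.6 ± 13.9 FPKM, lay between 370.8 and 421.0 FPKM in E16.5 FL and all marrow groups, and was 258.5 FPKM in E12.5 PL. The larger share of Cdk6 in older marrow thus came with a summed level within the range of the younger groups.

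Among the Cip/Kip inhibitors, Cdkn1c had the widest range of all 9 genes. It is an imprinted gene expressed from the maternal allele and abundant in placenta and other embryonic tissues, at chr7:143458339-143461050 on the minus strand. It measured 2319.3, 1999.9 and 2229.9 FPKM in E12.5 PL, against 12.4, 14 and 11.3 FPKM in E12.5 FL. That is 161.1-fold higher (7.33 ± 0.17, SE; limma adjusted p = 6.76e-21), beside trophoblast and stromal sums that were also far higher in E12.5 PL; their part in the result was not tested. Outside E12.5 PL it was a gene of the fetal liver that declined through marrow. It measured 16.4, 15.8 and 16.2 FPKM in E16.5 FL, 6.04, 4.68 and 8.19 FPKM in Perinatal BM and 5.55, 4.41 and 4.43 FPKM in 1w BM. The older marrow groups averaged 2.78 ± 0.928 FPKM at 3 weeks, 2.78 ± 0.593 at 4 weeks, 2.31 ± 0.232 at 6 weeks and 1.64 ± 0.465 at 8 weeks (SD, n = 3 each). All fetal liver libraries lay above all marrow libraries.

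Cdkn1c fell in Perinatal BM relative to E16.5 FL (-1.26 ± 0.17, 2.39-fold lower; limma adjusted p = 1.29e-05), in 1w BM relative to E16.5 FL (-1.57 ± 0.17, 2.97-fold lower; 8.84e-07) and in 8w BM relative to E16.5 FL (-2.71 ± 0.17, 6.55-fold lower; 3.94e-11). None of these was lost in the fits that left out a library. It fell again in 3w BM relative to 1w BM (-0.64 ± 0.17, adjusted p = 0.0195), a call lost without 1w BM replicate 1 or 3w BM replicate 3 (0.0984 and 0.136) and in a fit of the 6 libraries alone (0.115).

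Cdkn1b followed a course with 2 low points rather than a single trend. Its product restrains cyclin E and Cdk2 and also helps assemble D-type cyclin complexes; the gene lies at chr6:134920401-134925513 on the plus strand. It measured 29.6, 38.7 and 32.9 FPKM in E12.5 PL, against 16.7, 20.5 and 17.7 FPKM in E12.5 FL (0.84 ± 0.10, limma adjusted p = 1.01e-07). It rose in E16.5 FL, at 32.3, 30.9 and 27.5 FPKM, relative to E12.5 FL (0.70 ± 0.10, adjusted p = 2.14e-05). Libraries did not overlap in either comparison. It measured 22.5, 27.5 and 26.4 FPKM in Perinatal BM and 22.3, 22.4 and 18.8 FPKM in 1w BM, and the fall in 1w BM relative to E16.5 FL was called (-0.50 ± 0.10, adjusted p = 0.00108). It rose in 3w BM, at 36.3, 35.2 and 30.6 FPKM, relative to 1w BM (0.66 ± 0.10, 1.58-fold; adjusted p = 0.000204). The highest group mean was 39.9 ± 2 FPKM in 4w BM, and 8w BM at 30.9 ± 2.73 FPKM differed from E16.5 FL at 30.2 ± 2.47 FPKM by 0.03 ± 0.10 (adjusted p = 0.88).

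Beside the steps around 1w BM, neutrophil genes summed to between 3857.7 and 6005.5 FPKM in 1w BM, against 955.2 to 1972.6 FPKM in E16.5 FL. They summed to between 3312.8 and 3604.1 FPKM in 3w BM. Of 13 neutrophil genes tested, 5 rose and 3 fell in 1w BM relative to E16.5 FL, and none rose and 5 fell in 3w BM relative to 1w BM. B lineage genes summed to between 95.4 and 279.5 FPKM in E16.5 FL. In 1w BM relative to E16.5 FL 12 of 14 fell and 1 rose, and in 3w BM relative to 1w BM 4 rose. The gene that rose in 1w BM was Dntt, at a mean of 30.1 FPKM, against 0.377 FPKM in E16.5 FL. Erythroid genes summed to between 40.4 and 146.0 FPKM in the libraries of fetal liver and marrow; 7 of 11 rose in E16.5 FL relative to E12.5 FL. In E16.5 FL relative to E12.5 FL, 11 of 14 B lineage genes rose, and 8 of 13 neutrophil genes rose and 2 fell. In 8w BM relative to E16.5 FL, 1 B lineage gene rose and 11 of 14 fell, 2 endothelial genes rose and 13 of 18 fell, 6 neutrophil genes rose and 6 fell, and 8 mast cell and basophil genes rose and 3 fell. The part of these lineage genes in the differences of the cell cycle genes was not tested.

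The INK4 inhibitors split into one gene that climbed and one that did not trend. Cdkn2c (chr4:109660876-109667189, minus strand), whose loss in mice raises stem cell self-renewal, measured 6.64, 5.57 and 5.93 FPKM in E12.5 PL, against 0.568, 0.604 and 0.369 FPKM in E12.5 FL (2.22 ± 0.19, limma adjusted p = 3.87e-10). It measured 1.76, 2.47 and 1.24 FPKM in E16.5 FL, above every E12.5 FL library (0.88 ± 0.19, adjusted p = 0.00131). At these levels differences of 1 FPKM weigh heavily in a fold and the pseudocount matters. Marrow began where fetal liver ended, at 1.22, 1.81 and 2.11 FPKM in Perinatal BM and 4.13, 1.79 and 2.27 FPKM in 1w BM. It measured 3.4, 5.25 and 5.34 FPKM in 3w BM and 7.53, 5.54 and 7.04 FPKM in 4w BM. The highest values were 11.3, 13.4 and 13.2 FPKM in 6w BM and 16.4, 15 and 14 FPKM in 8w BM. The 6w and 8w libraries did not overlap each other or any younger group.

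Cdkn2c rose in 8w BM relative to E16.5 FL by 2.53 ± 0.19 (5.79-fold on the scale with a pseudocount of 1; limma adjusted p = 7.6e-10). The ratio of the highest to the lowest group mean in FPKM was 29.4, between 8w BM and E12.5 FL. Of the steps within marrow, 6w BM against 4w BM passed (0.83 ± 0.19, adjusted p = 0.0158) but not without 4w BM replicate 2 (0.0621), 6w BM replicate 2 (0.0756) or 6w BM replicate 3 (0.0535), nor with a pseudocount of 0.1 (0.0606) or in a fit of the 6 libraries (0.129). The step from 1w to 3w BM (0.63 ± 0.19, adjusted p = 0.0381) was lost in 4 of the 6 fits that left out a library (without 1w BM replicate 2 or 3, or 3w BM replicate 2 or 3; 0.136 to 0.199), with the pseudocount of 0.1 (0.0562), without the filter (0.0646) and in a fit of the 6 libraries (0.198). The rise in 8w BM relative to E16.5 FL was called under every alternative run, and these 2 steps within marrow were not.

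Cdkn2d (chr9:21288410-21291407, minus strand) held the largest part of the inhibitor FPKM in E12.5 FL (47.7%) and in 1w BM (56.6%). Its group means ranged from 28.6 to 50.3 FPKM, a ratio of 1.76. It measured 45.6, 43.8 and 35.5 FPKM in E16.5 FL, against 29.5, 28.5 and 27.8 FPKM in E12.5 FL, with no overlap (0.52 ± 0.13, limma adjusted p = 0.00433). In E12.5 PL it measured 35.1, 30.3 and 34.6 FPKM, also above every E12.5 FL library, but the difference of 0.21 ± 0.13 missed the threshold (adjusted p = 0.153; 0.0476 in a fit of those 6 libraries). It measured 29, 27.2 and 37.2 FPKM in 8w BM, against 43.5, 58.8 and 48.5 FPKM in 6w BM, and fell (-0.67 ± 0.13, 1.6-fold lower; adjusted p = 0.00205, 0.11 in a fit of those 6 libraries). It also fell in 8w BM relative to E16.5 FL (-0.41, adjusted p = 0.017), where the groups overlapped, and that call was lost in 4 of the 6 fits that left out a library (without E16.5 FL replicate 1 or 2, or 8w BM replicate 1 or 2; 0.0622 to 0.0949) and in a fit of the 6 libraries (0.0827).

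The inhibitors changed in composition as well. In E12.5 FL the shares of summed inhibitor FPKM were 47.7% for Cdkn2d, 30.5% for Cdkn1b, 20.9% for Cdkn1c and 0.853% for Cdkn2c. In 8w BM they were 39.4%, 39.2%, 2.11% and 19.3 ± 2.86% in the same order. Cdkn1c held the larger share of these 2 up to 1w BM (7.28%, beside 4.2% for Cdkn2c), and Cdkn2c held it from 3w BM on (5.52%, beside 3.24% for Cdkn1c). Summed FPKM of the inhibitors in the set was 59.9 ± 3.29 in E12.5 FL and 103.1 ± 7.84 in 6w BM, the lowest and highest of the liver and marrow groups, and 2256.1 in E12.5 PL.

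**Figure D3:**
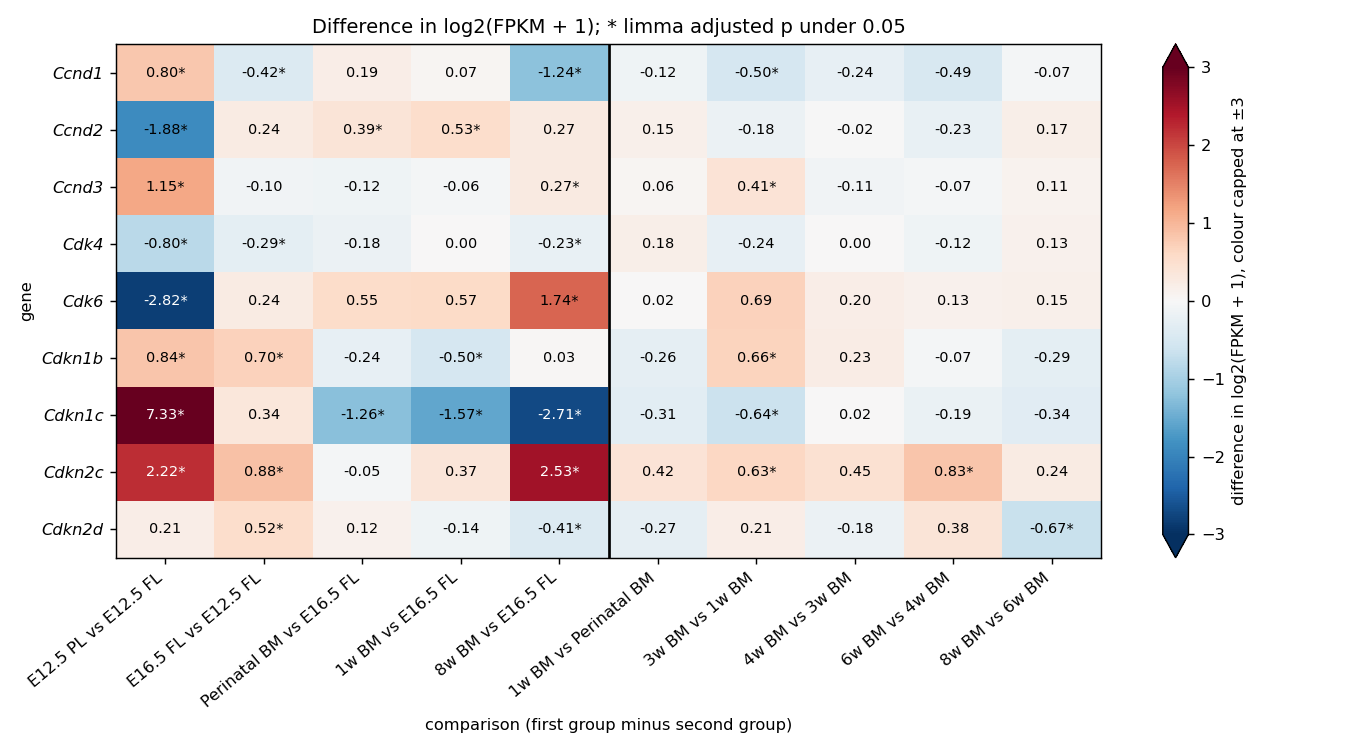
Difference in log2(FPKM + 1), first group minus second, for each of the 9 genes (rows) in 10 comparisons (columns); a star marks where the limma adjusted p was under 0.05. The column of 8w BM against E16.5 FL holds 3 rises and 4 falls, and the steps from 3w to 4w BM and from Perinatal to 1w BM hold none.

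Counted by comparison, 5 of the 9 genes rose and 3 fell in E12.5 PL relative to E12.5 FL, in a comparison where 41% of all tested genes rose and 33.2% fell (74.2% called). In 8w BM relative to E16.5 FL, 3 rose (Ccnd3, Cdk6 and Cdkn2c) and 4 fell (Ccnd1, Cdk4, Cdkn1c and Cdkn2d), while of all genes 20.5% rose and 19.7% fell (40.2% called). In E16.5 FL relative to E12.5 FL, 3 rose (Cdkn1b, Cdkn2c and Cdkn2d) and 2 fell (Ccnd1 and Cdk4), while of all genes 19% rose and 15.6% fell (34.6%). All 3 genes that rose there encode inhibitors, and the remaining inhibitor gene of the set, Cdkn1c, was not called (0.34 ± 0.17, SE, limma adjusted p = 0.132). In Perinatal BM relative to E16.5 FL, 1 rose and 1 fell, while 14.2% of all genes rose and 14.2% fell (28.4%). In 1w BM relative to E16.5 FL 1 rose and 2 fell, while 10.4% of all genes rose and 11.9% fell (22.2%). In 3w BM relative to 1w BM, 3 rose (Ccnd3, Cdkn1b and Cdkn2c) and 2 fell (Ccnd1 and Cdkn1c), while of all genes 5.69% rose and 4.76% fell (10.4%). The median log2 difference of the 9 genes was 0.80 in E12.5 PL against E12.5 FL and between -0.07 and 0.24 in the other comparisons; over all tested genes it lay between -0.005 and 0.064. These comparisons share groups, so their counts are not independent.

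The remaining marrow steps held few calls. For 1w BM against Perinatal BM limma called none of the 9 (2 had an unadjusted p under 0.05), while 8.6% of all genes rose and 8.97% fell (17.6%). For 4w BM against 3w BM it also called none (2 with an unadjusted p under 0.05), while 4.72% of all genes rose and 4.56% fell (9.28%). In 6w BM relative to 4w BM 1 rose (Cdkn2c), while 2.59% of all genes rose and 1.35% fell (3.94%). In 8w BM relative to 6w BM 1 fell (Cdkn2d), while 2.97% of all genes rose and 5.21% fell (8.18%). No other tool was run.

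The wider G1/S machinery was read from a list of 32 further genes (cyclins E and A, their kinases, the E2F and retinoblastoma families and their regulators), next to 30 DNA replication and 32 mitosis genes. In E12.5 PL relative to E12.5 FL, 7 G1/S genes rose and 14 fell. Of all tested genes, 74.2% were called in this comparison. That share was 34.6% for E16.5 FL against E12.5 FL and 17.6% for 1w against Perinatal BM. Against E16.5 FL it was 28.4% for Perinatal BM, 22.2% for 1w BM and 40.2% for 8w BM. Ccne1, which encodes cyclin E1, averaged 63.4 ± 4.6 FPKM in E12.5 PL and 13.2 ± 0.896 FPKM in E12.5 FL (SD, n = 3 each; 2.18 ± 0.13 SE, limma adjusted p = 1.81e-13). Rbl1, which encodes a relative of the retinoblastoma protein, averaged 10.2 ± 1.37 FPKM in E12.5 PL and 26.6 ± 1.25 FPKM in E12.5 FL (-1.31, adjusted p = 4.02e-12). Most replication genes fell (2 rose and 22 of 30 fell, median -0.47), as did most mitosis genes (1 rose and 27 of 32 fell, median -0.49), while the G1/S list was mixed (median -0.16).

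In E16.5 FL relative to E12.5 FL, 6 G1/S genes rose and 10 fell, no replication gene rose and 21 of 30 fell, and no mitosis gene rose and 15 of 32 fell. The smallest p among the G1/S genes was that of Skp2, part of the ubiquitin ligase that marks the Cdkn1b protein for degradation, at 11.1 ± 2.79 FPKM in E16.5 FL and 23.2 ± 0.933 FPKM in E12.5 FL (-1.03 ± 0.17, adjusted p = 6.2e-05). In Perinatal BM relative to E16.5 FL, 2 G1/S genes rose and 8 fell, 3 replication genes fell, and 27 of 32 mitosis genes fell (median -0.47). In 1w BM relative to Perinatal BM, 27 mitosis genes rose (median 0.43), as did 13 of 30 replication genes and 6 of 32 G1/S genes, and none of these lists held a gene that fell. Ccna2, which encodes cyclin A2 of S phase, averaged 54.6 ± 2.67 FPKM in Perinatal BM and 76.7 ± 5.66 FPKM in E16.5 FL (-0.48, adjusted p = 5.15e-05). It averaged 78.8 ± 3.81 FPKM in 1w BM and 54.6 ± 2.67 FPKM in Perinatal BM (0.52, adjusted p = 4.43e-05). None of the 9 genes was called in that last comparison.

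In 8w BM relative to E16.5 FL, 7 G1/S genes rose and 10 fell, 3 replication genes rose and 5 fell, and no mitosis gene rose and 21 of 32 fell (median -0.33). Rbl2, which encodes the retinoblastoma relative most abundant in resting cells, averaged 22.1 ± 2 FPKM in 8w BM and 13.2 ± 0.406 FPKM in E16.5 FL (0.71 ± 0.12, limma adjusted p = 4.8e-05). E2f5, a repressor E2F that works with the Rbl2 protein, averaged 5.43 ± 1.05 FPKM in 8w BM and 12.8 ± 1.44 FPKM in E16.5 FL (-1.11 ± 0.16, adjusted p = 5.64e-06). In 1w BM relative to E16.5 FL, 6 G1/S genes rose and 5 fell, 8 replication genes rose and none fell, and 2 mitosis genes rose and 4 fell. Of the later steps, 4w BM against 3w BM held the largest counts, with 4 G1/S, 8 replication and 6 mitosis genes that fell and 1 G1/S gene that rose. For 3w BM against 1w BM 2 G1/S and 5 mitosis genes fell, and in the steps to 6w and 8w BM at most 2 genes of a list were called. The share of all tested genes called was 10.4% for 3w BM against 1w BM and 9.28% for 4w BM against 3w BM. It was 3.94% for 6w BM against 4w BM and 8.18% for 8w BM against 6w BM.

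**Figure D4:**
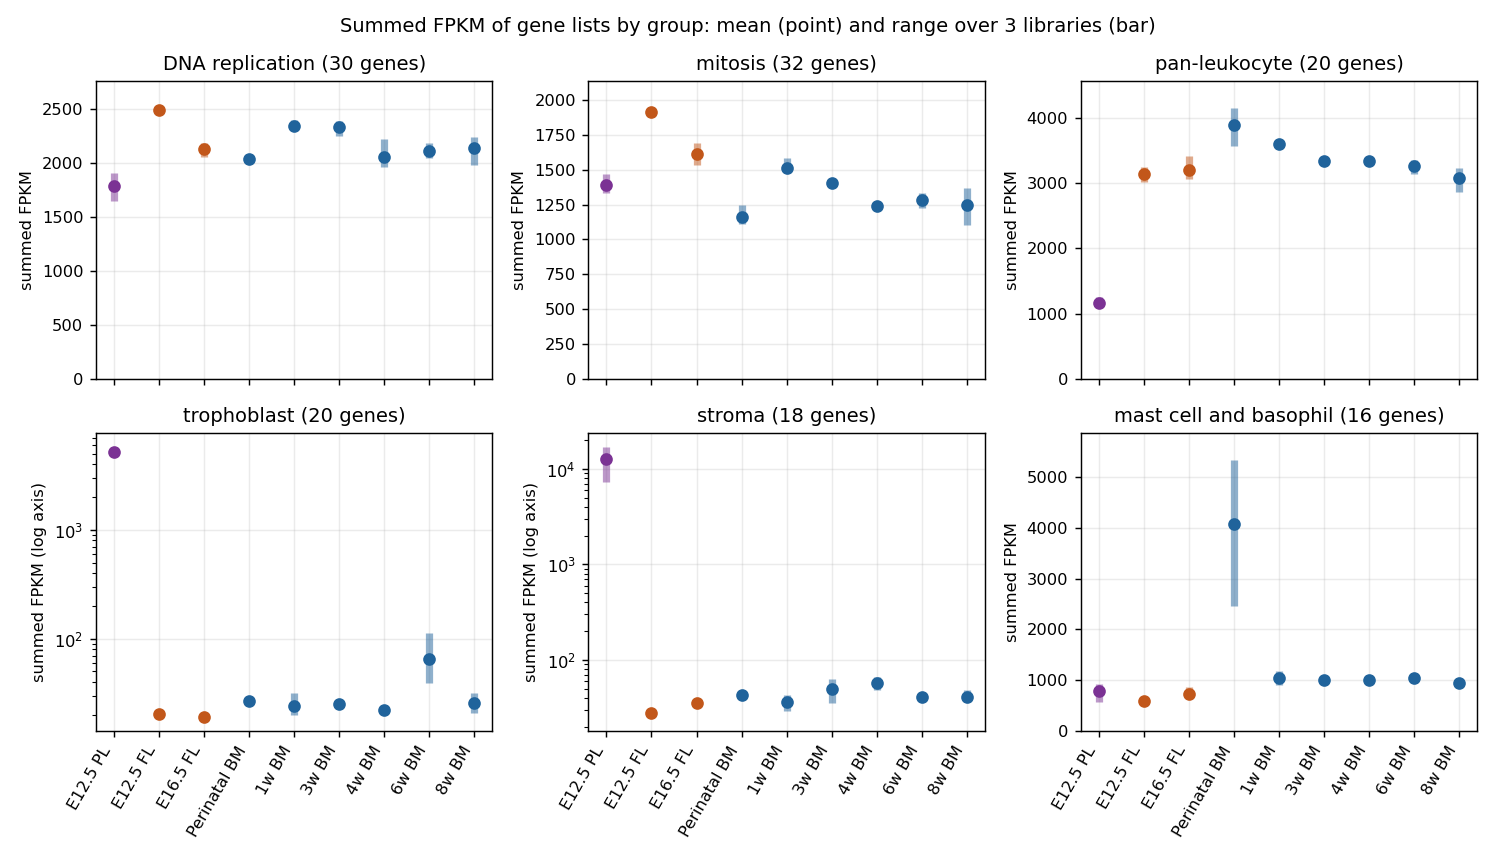
Summed FPKM by group, from E12.5 PL to 8w BM, of DNA replication, mitosis, pan-leukocyte, trophoblast, stroma and mast cell and basophil genes; points are means and bars the range of 3 libraries, with a log axis for trophoblast and stroma. Trophoblast and stromal sums stand apart in E12.5 PL, the mast cell and basophil sum in Perinatal BM at 2468.6 to 5326.8 FPKM, and mitosis genes are lower in Perinatal BM than in E16.5 FL or 1w BM.

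The genes whose profiles were most like those of the members were sought by Pearson r of log2(FPKM + 1) over the 24 libraries outside E12.5 PL, among 8559 genes. These libraries share 8 groups, so the values describe likeness along the same series of ages. Ccnd1 was most like Igf2bp3 (r = 0.964), Hmga2 (0.945) and Coro1a (0.942). Cdk6 was most like Mgat5 (0.969), Ltbp3 (0.963) and Bcl2 (0.962), and Cdkn2c like Plxnb2 (0.961), Dtx3l (0.957) and H2-Q7 (0.953). Cdkn1c was most like H19 (0.965), Bex1 (0.963) and Maged2 (0.953). The likeness of Ccnd3 was weakest, with Desi1 at 0.832, Lrrc45 at 0.828 and Scamp4 at 0.812. For Ccnd2 the nearest gene was Tmem150b (0.897), for Cdk4 Psmc1 (0.95), for Cdkn1b Zfp36l2 (0.948) and for Cdkn2d Sertad1 (0.934).

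On the GRCm38 annotation (GENCODE vM21), 6 of the 9 genes are overlapped by a gene on the opposite strand, among them Tspan31 at Cdk4 and Bysl at Ccnd3, and none by a gene on its own strand. Whether reads were counted by strand is not given in the sources used here, so reads of the overlapping stretches cannot be told apart.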

How the data were processed

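Expression was taken in the unit deposited by the authors, FPKM per gene and library. The submitters' processing notes list Trim Galore, FastQC, HTSeq 0.6.1p1, STAR 2.7 and, as build, GRCm38. How FPKM were made, with which annotation and strand setting, is not given in the sources used here. Without counts the depth is unknown. Low values move in steps, which put the libraries at 0.7 to 1.62 of a common depth (group means: lowest 0.82, 4w BM; highest 1.53, E12.5 FL), and this limits precision for low genes such as Cdkn2c.

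Values were analysed as log2(FPKM + 1). The genes tested had 1 FPKM or more in 3 or more libraries. The model was that of limma 3.58.1 (R 4.3.3; lmFit and eBayes with trend): a mean for every group, 27 libraries, 18 residual degrees of freedom, and Benjamini-Hochberg adjustment over the genes tested, with a threshold of 0.05. A trial of the model on simulated data planted log2 changes of 1 in genes that were not low. The trial does not cover smaller differences or low genes such as Cdkn2c. Summaries and plots used Python 3.11.15, pandas 2.3.3, numpy 2.4.6 and matplotlib 3.10.9.

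As alternatives, the pseudocount was set to 0.1, the filter was removed or raised to 5 FPKM, values were scaled by median of ratios, the fit was limited to the 6 libraries compared or made without E12.5 PL, a replicate block was added, and each library was left out. The 9 genes and the lists (G1/S, DNA replication, mitosis, pan-leukocyte, HSPC, trophoblast, endothelial, stroma, mast cell and basophil, neutrophil, erythroid, B lineage) were chosen with earlier results of these data known. Genes named from the G1/S list are among the 4 with the smallest adjusted p in a comparison. For likeness, the 3 most similar tested genes that averaged 5 FPKM or more were taken, leaving out clone, predicted and pseudogene names. Positions came from GENCODE vM21 and promoters from RefSeq. Levels of Ptprc and Kit were chosen after their values were seen.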

Additional observations from a re-analysis of the deposited data

How the results depend on the processing

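Of 90 differences of the 9 genes, 32 were called, and none of these 32 reversed under any alternative. Of the 32, 10 lost the call when a library was left out and 8 under another alternative. Most of the 8 are also among the 10, for example Ccnd1 and Cdkn2c in 3w against 1w BM. In the fit of only the 6 libraries compared, the number of all genes called was 2145 for Perinatal BM against E16.5 FL, 899 for 1w against Perinatal BM, 104 for 4w against 3w BM, 10 for 6w against 4w BM and 6 for 8w against 6w BM, beside 3786, 2345, 1239, 526 and 1092 with all 27 libraries; this fit has fewer residual degrees of freedom. Of the 9 genes, 3 were called in 3w against 1w BM without the filter (5 with it). In 6w against 4w BM 0 were called with a pseudocount of 0.1, 0 in the fit of 6 libraries and 2 without E12.5 PL (1 in the fit reported), and in 8w against 6w BM 0 in the fit of 6 libraries (1 reported).

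When a library was left out, 5 to 6 of the 9 genes were called in 8w BM against E16.5 FL. The fit reported called 7 there. The number was 3 to 4 for E16.5 FL against E12.5 FL and 3 to 4 for 3w against 1w BM (5 each in the fit reported). It ranged from 1 to 4 for Perinatal BM against E16.5 FL, 0 to 1 for 1w against Perinatal BM and 0 to 1 for 6w against 4w BM. In the perinatal comparisons, Cdk4 was called without Perinatal BM replicate 3 (adjusted p = 0.029 against E16.5 FL and 0.0409 for 1w against Perinatal BM), Cdkn1b in 1w against Perinatal BM without Perinatal BM replicate 1 (0.0449), and Cdkn2c in the same comparison without 1w BM replicate 2 (0.0489). All genes called ranged from 1462 to 2388 for 1w against Perinatal BM (lowest without 1w BM replicate 3), 738 to 988 for 3w against 1w BM (1w BM replicate 1), 363 to 1643 for 4w against 3w BM (3w BM replicate 1), 237 to 588 for 6w against 4w BM (6w BM replicate 2) and 478 to 1077 for 8w against 6w BM (6w BM replicate 2); the cause was not tested.

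The differences that changed sign were all uncalled, 11 in number, and near 0. Cdk4 in 1w BM against E16.5 FL was -0.004 under median-of-ratios scaling. With a library left out, differences ranged from -0.23 to 0.0076 for Ccnd3 in Perinatal BM against E16.5 FL, -0.2 to 0.11 for Cdkn2c in Perinatal BM against E16.5 FL, -0.021 to 0.17 for Ccnd1 in 1w BM against E16.5 FL, -0.046 to 0.033 for Cdk4 in 1w BM against E16.5 FL, -0.04 to 0.079 for Cdkn1b in 8w BM against E16.5 FL. They ranged from -0.071 to 0.16 for Ccnd3 in 1w BM against Perinatal BM, -0.11 to 0.2 for Cdk6 in 1w BM against Perinatal BM, -0.072 to 0.078 for Ccnd2 in 4w BM against 3w BM, -0.026 to 0.036 for Cdk4 in 4w BM against 3w BM, -0.2 to 0.15 for Cdkn1c in 4w BM against 3w BM and -0.16 to 0.03 for Ccnd1 in 8w BM against 6w BM.

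Replicate numbers did not pair the samples: residuals of same-numbered libraries correlated at -0.21 to 0.13, and 8 of 27 libraries were closest to one with their own number. With a block for the replicate number, 4 of the 9 genes were called in 3w against 1w BM (5 without it). The other 9 comparisons kept their totals. In 8w BM against E16.5 FL the total of 7 was made of 4 rises and 3 falls with the block, and of 3 rises and 4 falls without it. The adjusted p with the block was 0.0494 for Ccnd2 and 0.0513 for Cdk4 in 8w BM against E16.5 FL, and 0.0501 for Cdkn2c in 3w against 1w BM. Depth is unknown, so a difference missed at a few FPKM, as for Cdkn1c and Cdkn2c, is not shown to be absent.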
